A study of Mus musculus with 9 samples.

Results

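The genes described here are 10 integrin subunits of matrix-producing cells and of adhesion to matrix, measured in mouse livers scarred by thioacetamide (TAA). They were taken by symbol from the gene table: Itgav, Itgb1, Itgb3, Itgb5, Itgb6, Itgb8, Itga1, Itga5, Itga8 and Itga11. These are 10 of 24532 genes in the table. A filter on low counts left 14731 genes for testing, 9 of the 10 integrins among them, and Itgb8 fell below it. The samples were livers of wild-type C57BL/6 mice, all given escalating intraperitoneal doses of the liver toxin TAA on 2 days of each week for 10 weeks. Controls received saline (called TAA here, replicates 12, 13 and 14). The treated mice were given the human globin protein cytoglobin in recombinant form (rhCYGB), at 2 mg/kg by tail vein on 2 days of each week, either in the last 2 weeks (replicates 17, 18 and 19) or in the last 5 weeks (replicates 23, 27 and 28). The livers were taken 2 days after the final rhCYGB dose. Livers without TAA were not analysed here, so every difference is between injured livers.

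Integrins are pairs of an alpha and a beta chain that span the cell membrane, bind matrix outside the cell and connect to the actin skeleton inside it. Several pairs that contain the alpha v chain also pull on the latent complex of TGF beta and release the active cytokine, a main driver of matrix production by hepatic stellate cells. In liver, stellate cells carry many of these receptors, and endothelial cells, bile duct cells, immune cells and platelets carry some of them too. In whole-liver RNA, fewer cells of a type and less RNA per cell cannot be told apart.

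Each library held 55655727 to 87289945 estimated reads. Levels are given as CPM, counts scaled to library size by the trimmed mean method (TMM), and comparisons of level between genes as FPKM, which divides by transcript length. Changes are log2 ratios from edgeR's quasi-likelihood fit with an approximate standard error (SE), and a gene was called at an adjusted p under 0.05 over all 14731 genes. Replicates 17 and 18 lay lowest and replicate 23 highest on the first principal component, at -20.1, -25.4 and 41.2 against -13.2 to 12.7 for the other 6 libraries. The labels do not say that each library came from a separate mouse, so p-values measure only the spread between these samples. The 8 hepatocyte markers summed to 117000, 103000 and 113000 CPM in TAA, none at 0 in any library. The sums were 151000, 153000 and 113000 after 2 weeks and 111000, 152000 and 116000 after 5 weeks, in order of replicate number. None of the 8 was called. After 2 weeks 1 of their changes was below zero (median 0.28) and after 5 weeks 3 were (median 0.15), beside medians of -0.03 and 0.01 over all genes. Their part in the integrin values was not tested.

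Levels spanned a wide range within the family. In TAA the order by FPKM (mean ± SD, n = 3) began with Itgb1 at 56.6 ± 6.05 and Itgb5 at 46.8 ± 2.76, followed by Itga5 at 15.1 ± 2.86. Itgav stood at 4.48 ± 0.917, Itga1 at 3.41 ± 0.295 and Itga8 at 2.70 ± 0.21. Much lower were Itgb3 at 0.435 ± 0.142, Itgb6 at 0.179 ± 0.0267 and Itga11 at 0.10 ± 0.0318. Itgb8 was the lowest, with 4 counts in replicate 13 and none in the other TAA libraries. Of neighbours in this order, only Itgav and Itga1 had TAA library ranges that overlapped. After 2 weeks of rhCYGB the top of the order read Itgb5 at 38.9 ± 4.49 and Itgb1 at 36.3 ± 5.53 FPKM, with overlapping ranges. After 5 weeks Itgb1 was again first, at 48.0 ± 6.59 against 33.3 ± 4.29 for Itgb5, and their ranges did not overlap. Itga1 also overlapped with Itgav and with Itga8 in both treated groups.

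**Figure D1:**
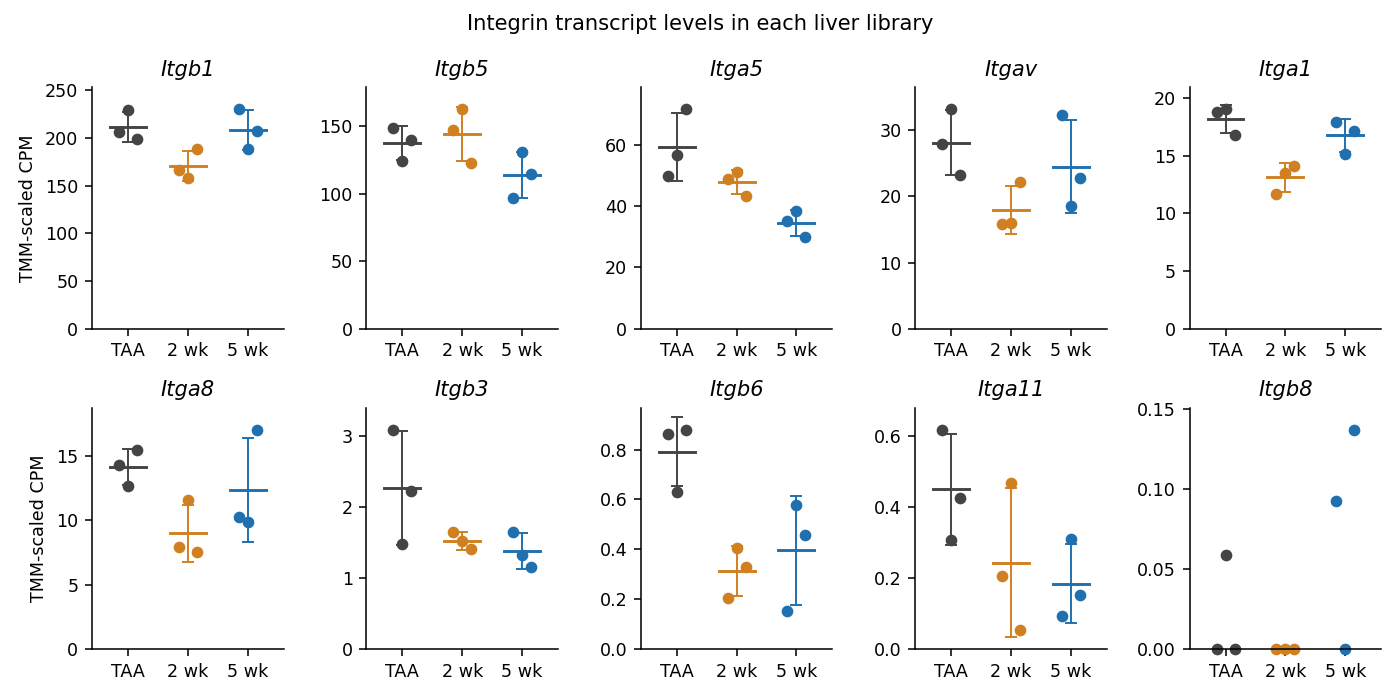
TMM-scaled CPM of the 10 integrins (vertical axis, linear, its own range for each gene) in the TAA, 2-week and 5-week libraries. Each point is 1 library, bars give the mean and SD of 3 libraries, and Itgb8 is shown without them. The 2-week points of Itgb1, Itgav, Itga1, Itga8 and Itgb6 all lie below the TAA points, and so do the 5-week points of Itga5 and Itgb6.

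The sequences just before the transcription starts of 5 of these genes are shown because the results below turn on them: Itgb1 and Itgb5 are the most abundant, Itgav and Itga1 varied with Itgb1 over the libraries, and Itga5 came nearest to a call. They were chosen after their values were seen. They are the 250 bases upstream of each start in RefSeq on GRCm38.p6, the assembly behind mm10, 5′ to 3′ on the gene's strand. RefSeq promoters matched 9 of the 10 genes, all but Itgb3. Capitals mark the motifs searched.
Itgb1, chr8:128685404-128685653, plus strand: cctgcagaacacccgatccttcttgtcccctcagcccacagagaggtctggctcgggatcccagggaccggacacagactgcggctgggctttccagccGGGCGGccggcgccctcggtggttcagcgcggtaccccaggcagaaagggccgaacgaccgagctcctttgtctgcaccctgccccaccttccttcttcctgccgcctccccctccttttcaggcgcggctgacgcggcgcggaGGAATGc
Itgb5, chr16:33829415-33829664, plus strand: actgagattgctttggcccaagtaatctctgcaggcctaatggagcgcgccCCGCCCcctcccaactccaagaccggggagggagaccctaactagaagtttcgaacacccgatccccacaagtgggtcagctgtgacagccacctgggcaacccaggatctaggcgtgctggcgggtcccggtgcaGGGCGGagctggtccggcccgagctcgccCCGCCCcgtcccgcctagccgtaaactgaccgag
Itgav, chr2:83724147-83724396, plus strand: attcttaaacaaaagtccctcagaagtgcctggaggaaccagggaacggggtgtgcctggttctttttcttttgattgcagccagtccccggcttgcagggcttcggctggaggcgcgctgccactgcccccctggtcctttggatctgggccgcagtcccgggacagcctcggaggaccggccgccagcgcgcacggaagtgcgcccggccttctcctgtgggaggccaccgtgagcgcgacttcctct
Itga1, chr13:115101965-115102214, minus strand: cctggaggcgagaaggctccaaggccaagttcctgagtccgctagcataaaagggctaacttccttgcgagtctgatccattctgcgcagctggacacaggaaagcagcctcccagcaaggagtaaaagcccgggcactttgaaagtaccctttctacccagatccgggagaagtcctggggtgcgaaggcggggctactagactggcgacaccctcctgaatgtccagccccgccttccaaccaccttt
Itga5, chr15:103366792-103367041, minus strand: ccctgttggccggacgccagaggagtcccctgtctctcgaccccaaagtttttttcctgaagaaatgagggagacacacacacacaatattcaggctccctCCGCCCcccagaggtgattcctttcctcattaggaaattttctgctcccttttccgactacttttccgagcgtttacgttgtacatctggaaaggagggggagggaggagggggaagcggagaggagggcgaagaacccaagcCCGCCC

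The search covered both strands for the GC box (GGGCGG), AP-1 (TGANTCA), TEAD (GGAATG), the TATA box (TATAAA) and the CArG box of serum response factor. The GC box was in 32.7% of 32851 promoter windows of the same length, AP-1 in 6.75%, TEAD in 12.6%, TATA in 12.4% and CArG in 1.47%. The Itgb1 window held a GC box beginning 151 bases before the start and a TEAD motif 7 bases before it. The Itgb5 window held 3 GC boxes, at 199, 63 and 34 bases, and the Itga5 window held 2, at 149 and 6 bases. The windows of Itgav and Itga1 held none of the 5 motifs. The matches do not overlap one another and are matches of letters only.

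No integrin of the 10 was called in any comparison by edgeR. After 2 weeks of rhCYGB against TAA, 0 of 9 tested integrins passed, where 3.31% of all tested genes did. At an unadjusted p under 0.05 there were 5 of 9, against 23.4% of all genes. Itgav, Itgb1, Itgb6, Itga1 and Itga8 had every 2-week library below every TAA library, 5 of 9 against 16.3% of all genes that were lower in this way. The median log2 change of the 9 was -0.57, beside -0.03 over all genes, and 8 of the 9 values were below zero. DESeq2 called 1 of the 9 (Itga1), beside 11.7% of its genes. Scaling by library totals alone called 5, beside 11.7% of all genes, and moved the median of all genes to -0.36. Limma on log2(FPKM + 1) called 6, beside 13.5% of all genes, with the median of all genes at -0.20 and 7.31% of its calls above zero. Comparing this group with TAA asks what a short late course of the protein left in the injured liver.

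Itgav encodes the alpha v chain, which recognises the RGD sequence of vitronectin, fibronectin and the latency peptide of TGF beta (gene ID 16410, mm10 chromosome 2, 83724397 to 83806917). It was at 27.9, 33.2 and 23.3 CPM in TAA, at 15.8, 15.9 and 22.2 after 2 weeks, and at 32.3, 18.5 and 22.7 after 5 weeks. Replicates 17 and 18 were nearly equal and low, replicate 19 came within reach of the lowest control, and the 5-week libraries spread over almost the whole TAA range and below it. The log2 change was -0.65 ± 0.23 after 2 weeks (95% interval -1.16 to -0.14, adjusted p = 0.134) and -0.20 ± 0.23 after 5 weeks (adjusted p = 0.688).

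Itgb1 encodes the beta chain shared by most matrix receptors, the collagen and fibronectin receptors included (gene ID 16412, chromosome 8, 128685654 to 128733579). It was at 206, 229 and 199 CPM in TAA, at 166, 158 and 188 after 2 weeks and at 230, 188 and 208 after 5 weeks. The 2-week libraries were lower by a narrow margin, and the 5-week libraries lay over the controls. The log2 change was -0.31 ± 0.12 after 2 weeks (95% interval -0.58 to -0.03, adjusted p = 0.173) and -0.02 ± 0.12 after 5 weeks (-0.29 to 0.26, adjusted p = 0.958).

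The collagen receptors that pair with Itgb1 come next. Itga1 encodes the alpha chain of a receptor for collagen IV and other collagens on stellate, smooth muscle and endothelial cells (gene ID 109700, chromosome 13, 114958081 to 115101964). It was at 18.8, 19 and 16.8 CPM in TAA, at 11.7, 13.5 and 14.1 after 2 weeks and at 18, 15.2 and 17.2 after 5 weeks. Its adjusted p at 2 weeks was the lowest of the 9 integrins, with a gap between the groups, and the 5-week libraries were all above the 2-week libraries. The log2 change after 2 weeks was -0.47 ± 0.13 (95% interval -0.76 to -0.19, adjusted p = 0.0710). DESeq2 put the same change at an adjusted p of 0.0199, and edgeR without 5-week replicate 23 at 0.0471, and both would call it. Totals alone (0.0251) and limma on log2(FPKM + 1) (0.0282) and log2(FPKM + 0.1) (0.0317) would as well. Other edgeR fits moved it away from the threshold. Its adjusted p was 0.175 with a trend over transcript length removed and 0.171, 0.24 and 0.134 without TAA replicate 12, 13 or 14. Without 2-week replicate 17 or 18 it was 0.263 and 0.151. After 5 weeks it was -0.12 ± 0.13 (adjusted p = 0.663), and between 5 and 2 weeks 0.35 ± 0.13 (adjusted p = 0.180).

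Itga11 encodes the alpha chain of a fibrillar collagen receptor of fibroblasts (gene ID 319480, chromosome 9, 62677855 to 62783979). It had 38, 21 and 31 counts in TAA, 10, 37 and 3 after 2 weeks and 6, 16 and 10 after 5 weeks. All groups overlapped at these low counts. The log2 changes were -0.84 ± 0.70 after 2 weeks and -1.30 ± 0.72 after 5 weeks, with 95% intervals of -2.39 to 0.71 and -2.90 to 0.30.

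Of the receptors for RGD ligands that pair with Itgb1, Itga8 encodes the nephronectin receptor chain, a known gene of stellate cells (gene ID 241226, chromosome 2, 12106634 to 12301944). It was at 14.3, 12.6 and 15.4 CPM in TAA, at 7.91, 11.6 and 7.52 after 2 weeks and at 10.3, 9.84 and 17 after 5 weeks. The 2-week libraries lay below the controls, 1 of them closely, and replicate 28 was the highest of all 9. The log2 change was -0.65 ± 0.24 after 2 weeks (95% interval -1.19 to -0.11, adjusted p = 0.150) and -0.19 ± 0.24 after 5 weeks (adjusted p = 0.721).

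Itga5 encodes the alpha chain of the main fibronectin receptor (gene ID 16402, chromosome 15, 103344286 to 103366791), and its group means were lower with each longer course. It was at 49.7, 56.6 and 71.6 CPM in TAA, at 49.0, 51.3 and 43.4 after 2 weeks and at 35.2, 38.5 and 29.9 after 5 weeks. The 2-week libraries overlapped with the controls, and the 5-week libraries lay below both other groups. The log2 change after 5 weeks was -0.78 ± 0.16 (95% interval -1.14 to -0.42, adjusted p = 0.0516), just outside the threshold. DESeq2 gave an adjusted p of 0.00157 for it, and edgeR without TAA replicate 14, the highest library, gave -0.62 and 0.199. Over all alternatives tried, its adjusted p ran from 0.00157 to 0.199 and its change stayed below zero. After 2 weeks it was -0.31 ± 0.16 (adjusted p = 0.268), and between 5 and 2 weeks -0.47 ± 0.16 (adjusted p = 0.178).

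The beta chains that pair with alpha v differed from one another. Itgb5 encodes the vitronectin receptor chain found on many cell types (gene ID 16419, chromosome 16, 33829665 to 33949338). It was at 149, 124 and 140 CPM in TAA, at 147, 162 and 123 after 2 weeks and at 96.6, 131 and 114 after 5 weeks. The groups overlapped throughout. The log2 changes were 0.07 ± 0.15 after 2 weeks (95% interval -0.27 to 0.41, adjusted p = 0.807) and -0.27 ± 0.15 after 5 weeks (adjusted p = 0.367). The sign at 2 weeks depended on the scale, with -0.26 when libraries were scaled by their totals alone.

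Itgb6 encodes an epithelial chain whose pair with alpha v activates TGF beta, and which bile duct cells express in fibrosis (gene ID 16420, chromosome 2, 60598292 to 60722603). It was at 0.861, 0.632 and 0.879 CPM in TAA, at 0.207, 0.405 and 0.329 after 2 weeks and at 0.154, 0.580 and 0.457 after 5 weeks. All 6 treated libraries lay below all 3 controls. The log2 change of all treated libraries against TAA was -1.15 ± 0.40 (95% interval -2.04 to -0.26, adjusted p = 0.165). By group it was -1.31 ± 0.50 after 2 weeks (adjusted p = 0.154) and -1.0 ± 0.49 after 5 weeks (adjusted p = 0.299). The 8 markers of bile duct cells summed to between 54.1 and 95.6 CPM in TAA, between 51.9 and 88.4 with the short course and between 32.9 and 59.8 with the long course, with none of them called. Of the changes of these markers, 5 of 8 were below zero after 2 weeks, with a median of -0.03, the same as over all genes. All 8 were below zero after 5 weeks, with a median of -0.7 beside 0.01 over all genes. The part of bile duct cells in the Itgb6 values was not tested.

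Itgb3 encodes the chain of the vitronectin receptor of endothelial cells and macrophages and of the fibrinogen receptor of platelets (gene ID 16416, chromosome 11, 104608000 to 104670471). It was at 3.09, 1.48 and 2.23 CPM in TAA, at 1.65, 1.52 and 1.41 after 2 weeks and at 1.65, 1.33 and 1.16 after 5 weeks. The lowest control lay among the treated libraries. The log2 changes were -0.57 ± 0.29 (adjusted p = 0.257) and -0.71 ± 0.29 (adjusted p = 0.216). Platelet and megakaryocyte markers, 6 genes of which 3 were tested, summed to 3.19 to 4.84 CPM in TAA, 2.72 to 4.75 and 1.81 to 3.90. The sums hold all 6 genes. Of the 3 tested, only 1 changed below zero in each comparison with TAA, and the medians were 0.31 after 2 weeks and 0.67 after 5 weeks. None was called, and their part in the Itgb3 values was not tested.

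Itgb8 encodes a further chain that presents latent TGF beta (gene ID 320910, chromosome 12, 119162803 to 119238276). It had no count in 6 of the 9 libraries, 4 counts in TAA replicate 13, 6 in 5-week replicate 23 and 9 in replicate 28. A count of 0 allows up to 3 counts, or 0.0380 to 0.0620 CPM in these libraries, and covers counting error only. No comparison of Itgb8 was made.

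**Figure D2:**
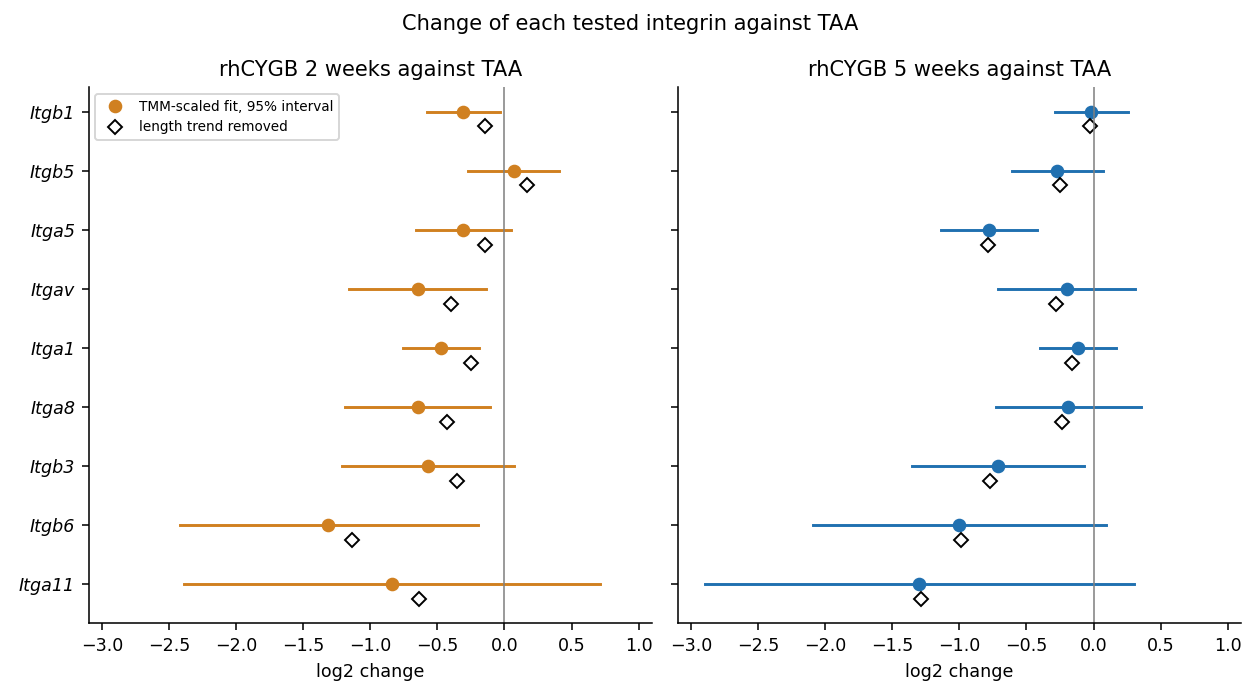
Log2 change of each of the 9 tested integrins against TAA after 2 weeks (left) and 5 weeks (right) of rhCYGB. Filled circles and lines give the edgeR estimate and its 95% interval, and open diamonds the estimate after a trend over transcript length was removed. After 2 weeks the diamonds lie to the right of the circles, and the intervals of Itgav, Itgb1, Itgb6, Itga1 and Itga8 lie below zero. After 5 weeks those of Itgb3 and of Itga5, at -0.78, lie below zero. The intervals are not adjusted for the number of genes tested.

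After 5 weeks against TAA, which asks about the longer course, 0 of 9 integrins were called, beside 1.29% of all genes. At an unadjusted p under 0.05 there were 2 of 9, Itgb3 and Itga5, against 19.2% of all genes. Itgb6 and Itga5 were lower without overlap, 2 of 9 against 13.4% of all genes. The median log2 change was -0.27 beside 0.01 for all genes, and all 9 values were below zero. DESeq2 called 1 of the 9 (Itga5), beside 7.38% of its genes. Limma on log2(FPKM + 1) called 2 (Itgb5 and Itga5), beside 6.80% of all genes, and scaling by totals alone called 1 (Itga5), beside 3.42%. These last scales put the median of all genes at -0.13 and -0.21, with 6.89% and 7.54% of calls above zero. This comparison shares its controls with the 2-week comparison, so their values are not independent.

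Between 5 and 2 weeks 0 of 9 integrins were called, beside 0.0204% of all genes, and 3 of 9 (Itgb1, Itga1 and Itga5) had an unadjusted p under 0.05, beside 23.2%. Itga5 was lower at 5 weeks without overlap, where 10.2% of all genes were, and Itga1 was higher without overlap, where 10.9% were. With both courses pooled against TAA, 0 of 9 were called beside 2.00% of all genes. Unadjusted, Itgb3, Itgb6 and Itga5 passed, 3 of 9 beside 17.8%, and Itgb6 alone was lower without overlap, beside 6.73% of genes. DESeq2 called 0 in both, beside 5.73% and 7.48% of its genes. Limma on log2(FPKM + 1) called 0 and 3, beside 0.0339% and 11.1% of all genes, with the median of all genes at -0.17 in the second and 5.06% of its calls above zero. The medians of the 9 were 0.29 and -0.40 in these comparisons, beside -0.01 and 0.01 over all genes.

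Most of the 10 genes have long transcripts, and change varied with transcript length in these libraries. Over the tested genes, the Spearman correlation of log2 change with length, given as a description, was -0.42 after 2 weeks, 0.05 after 5 weeks and 0.47 between 5 and 2 weeks. The 4039 genes of at least 4000 bases had median changes of -0.23, 0.06 and 0.27 in these comparisons. Of the 9 tested integrins 8 are that long, from Itgb1 with 4194 bases to Itgav with 7055, and Itgb5 has 3280. With the trend over length removed, the median of the 9 was -0.35 after 2 weeks, -0.28 after 5 weeks and 0.09 between them. In that fit the 2-week changes were -0.25 for Itga1, -0.40 for Itgav, -0.43 for Itga8, -0.15 for Itgb1 and -1.13 for Itgb6, and the 5-week change of Itga5 was -0.79. No integrin of the 10 was called in it.

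The mix of beta chains that can join alpha v was set by the same pair of genes in every library. Of the summed FPKM of Itgb1, Itgb3, Itgb5, Itgb6 and Itgb8, Itgb1 made up 51.6% to 58.9% in TAA, 43% to 54.3% with the short course and 52.7% to 64.8% with the long course. Itgb5 made up 40.7% to 47.6%, 45.3% to 56.6% and 34.8% to 46.9%. The ranges of the groups overlapped for both. Itgb3 held at most 0.560% in any library, Itgb6 at most 0.197% and Itgb8 at most 0.0465%. The Itgb1 to Itgb5 ratio of FPKM was 1.08, 1.45 and 1.11 in TAA, 0.886, 0.759 and 1.20 after 2 weeks, and 1.87, 1.13 and 1.42 after 5 weeks. It was below 1 only in replicates 17 and 18 and highest in replicate 23, the libraries that also stood apart on the first principal component. These shares are of RNA from all cells of the liver and say nothing of pairing.

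**Figure D3:**
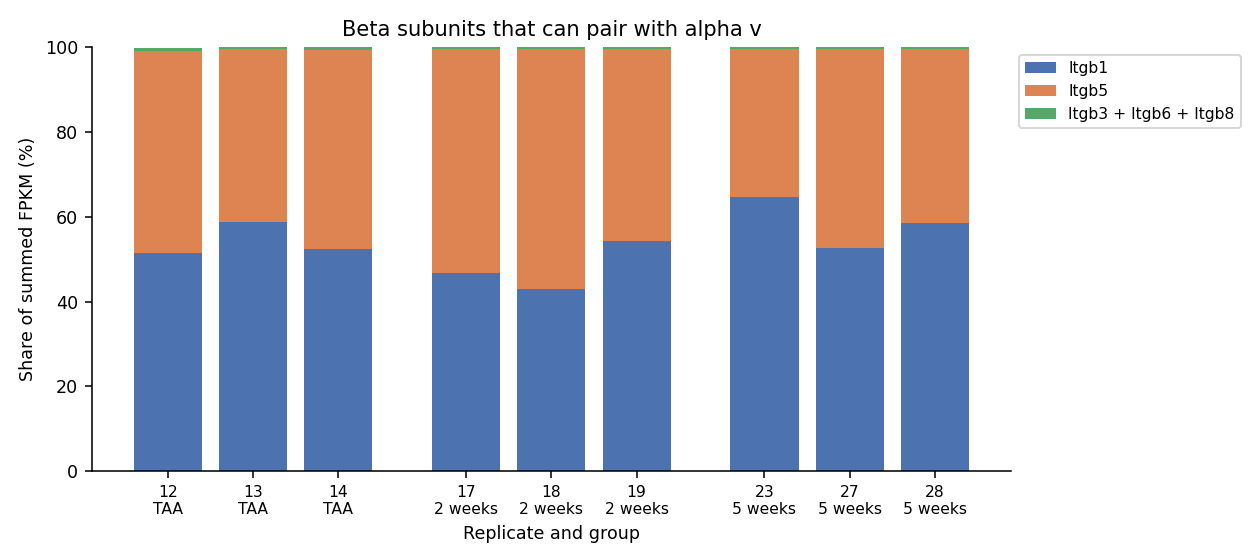
Share of the summed FPKM of 5 beta chains (vertical axis, percent) taken by Itgb1, Itgb5 and the sum of Itgb3, Itgb6 and Itgb8 in each of the 9 libraries. Itgb1 runs from 43.0% in replicate 18 to 64.8% in replicate 23, and the other 3 chains form a thin band at the top.

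Over the 9 libraries, Itgav, Itgb1 and Itga1 varied together. Of 36 pairs among the 9 tested integrins, Pearson's r of log2(CPM + 0.5) was 0.95 for Itgav with Itgb1 (exact permutation p = 0.000251, 0.00904 adjusted over the 36), and Spearman's rho was 0.92 (exact permutation p = 0.00131, adjusted 0.0236). For Itgav with Itga1 r was 0.90 (exact permutation p = 0.00107, adjusted 0.0128) and rho 0.95 (p = 0.000353, adjusted 0.0127). For Itgb1 with Itga1 r was 0.90 (exact permutation p = 0.000854, adjusted 0.0128) and rho 0.88 (p = 0.00308, adjusted 0.0370). All tests were two-sided. The libraries share treatment groups as well as the integrins. The permutations moved values freely over all 9 libraries, across groups. The p-values here and for Itgb5 below therefore cannot separate group or length effects from shared variation between libraries. Taken as deviations from group means, the 3 values of r were 0.96, 0.83 and 0.72. Without the 2 libraries farthest from the median of the first gene they were 0.93, 0.84 and 0.83, and without replicates 17, 18 and 23 (n = 6) they were 0.89, 0.81 and 0.88. With the length trend removed they came to 0.80, 0.51 and 0.50. The highest r of the 36 pairs was then 0.93, for Itgb6 with Itga1, a pair at 0.50 before the removal. Itga1 also had 0.69 with Itga8 and 0.63 with Itga11, above its values with Itgav and Itgb1. The p-values above are all for values with the length trend left in.

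Itgb5 ran the other way from Itgb1. Its r with Itgb1 was -0.75 (exact permutation p = 0.0210, adjusted 0.133) and rho -0.70 (p = 0.0433, adjusted 0.302), so it did not pass the adjustment. It was -0.52 without the 2 libraries farthest from the median of Itgb1 and -0.12 without replicates 17, 18 and 23 (n = 6). Taken as deviations from group means it was -0.96, and with the length trend removed -0.69. Within TAA, replicate 13 was the highest of the 3 for Itgb1 and the lowest for Itgb5.

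**Figure D4:**
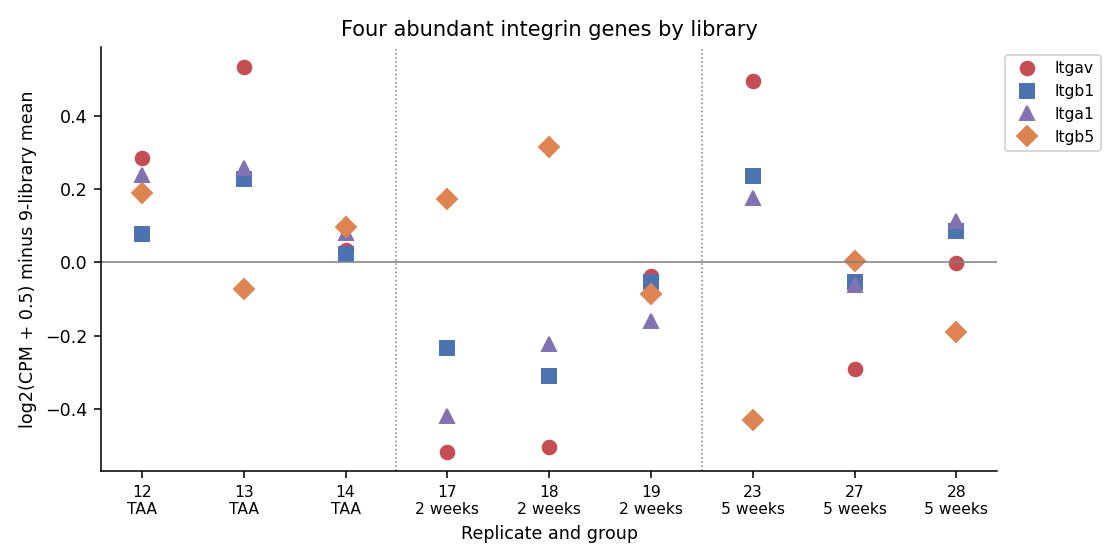
Deviation of log2(CPM + 0.5) from the mean of the 9 libraries (vertical axis) for Itgav, Itgb1, Itga1 and Itgb5, 1 point per gene and library, ordered by replicate number within each group. Itgav, Itgb1 and Itga1 lie below zero in replicates 17 and 18 and above it in replicate 23, and Itgb5 lies on the other side of zero in these 3 libraries.

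The pattern of Itga5, the integrin with the lowest p, was most like that of Tnfrsf12a, Tubb6 and Mmp14 among 12407 other tested genes of at least 1 CPM. Pearson's r over the 9 libraries was 0.949, 0.947 and 0.943, and Spearman's rho 0.917, 0.967 and 0.967. Tnfrsf12a encodes the receptor for TWEAK, Tubb6 a beta tubulin and Mmp14 a membrane-bound collagenase. They were picked for their high values, so these are descriptions.

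In the transcript table, Itgav, Itgb1, Itgb3, Itgb8, Itga1 and Itga11 have 1 transcript each. Itgb5 has a pair of coding variants with the same start and end, and the share of variant 2 was 4.23%, 6.69% and 3.72% in TAA, 3.60%, 4.12% and 4.07% after 2 weeks, and 5.17%, 13.9% and 12.6% after 5 weeks. Replicates 27 and 28 were above all other libraries and replicate 23 was not. Itgb6 reads were all assigned to variant 1, none to the variant with the downstream start, and at least 99.6% of Itga5 FPKM was variant 1. All Itga8 reads were assigned to a transcript annotated as noncoding, variant 2, and the coding transcript was listed at 0 in all 9 libraries, so the Itga8 values above are those of the noncoding model. Shares of near-identical variants are estimates of the assembler.

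The other 16 integrin subunits, of which 15 were tested, held 1 called gene in each comparison with TAA, beside 3.31% of all genes after 2 weeks and 1.29% after 5 weeks. Itga6, the alpha chain of laminin receptors of epithelial and endothelial cells, was at 9.38, 10.5 and 9.30 CPM in TAA, at 4.53, 4.78 and 5.71 after 2 weeks and at 5.40, 5.58 and 5.05 after 5 weeks. All treated libraries lay well below all controls. Itga6 fell by 0.96 ± 0.15 on the log2 scale after 2 weeks (adjusted p = 0.0240) and by 0.86 ± 0.15 after 5 weeks (adjusted p = 0.0394). The other 14 were not called in either comparison, and the medians of the 15 were -0.27 and -0.48. Without TAA replicate 12, 13 or 14, or 2-week replicate 17 or 18, the adjusted p at 2 weeks was 0.0721, 0.117, 0.0761, 0.109 and 0.0668, and the change stayed between -1.0 and -0.89. At 5 weeks the call held among single omissions only without replicate 27 (adjusted p = 0.0457), with changes between -0.89 and -0.82. Without replicates 17, 18 and 23 together the adjusted p was 0.191 at 2 weeks and 0.0762 at 5 weeks.

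Among the matrix ligands of these receptors, 9 of 29 tested genes fell after 2 weeks and none rose, beside 1.34% of all genes called lower. After 5 weeks 6 of 29 fell and none rose, beside 0.604%. The medians were -0.99 and -0.97. Col1a2, a chain of collagen I, was at 430, 272 and 389 CPM in TAA, at 65.4, 161 and 63.5 after 2 weeks and at 46.8, 92.5 and 116 after 5 weeks, with no overlap. Col5a2, a chain of the collagen V that seeds fibrils, fell by 1.92 ± 0.35 after 2 weeks (adjusted p = 0.0275) and by 1.91 ± 0.35 after 5 weeks (adjusted p = 0.0452). Thbs1, a matrix protein that also activates TGF beta, fell by 1.91 ± 0.32 (adjusted p = 0.0255) and by 1.85 ± 0.32 (adjusted p = 0.0406). Tnc, the injury-associated glycoprotein tenascin C, fell by 1.80 ± 0.40 (adjusted p = 0.0455) and by 2.07 ± 0.41 (adjusted p = 0.0475). Col4a1 and Col5a1 were called in both comparisons as well, and Fbn1, Lamc1 and Nid1 after 2 weeks and not after 5 weeks. None of the 29 was called between 5 and 2 weeks. The calls were close to the threshold: without any single TAA library 0 of 29 were called in either comparison, while the medians stayed between -1.13 and -0.86. Without 2-week replicate 17 or 18 there were also 0 at 2 weeks and without replicate 19 there was 1. At 5 weeks the number was 0 or 1 without any single library. With the length trend removed it was 2 at 2 weeks and 6 at 5 weeks, and without replicates 17, 18 and 23 together it was 1 in each. Other settings called more at 2 and 5 weeks: 16 and 16 lower with DESeq2 (and 1 higher at 2 weeks), 21 and 15 with limma on log2(FPKM + 1), and 19 and 13 with totals alone. Upper quartile scaling called 6 and 2, only the groups compared 13 and 0, and leaving out replicate 23 gave 15 at 2 weeks.

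Of 30 genes of the focal adhesion, which joins integrin tails to actin, 2 fell and 1 rose after 2 weeks, beside 3.31% of all genes called and 1.34% called lower. Lims1 (PINCH1), an adaptor of integrin-linked kinase, fell by 0.66 ± 0.15 (adjusted p = 0.0432), and its relative Lims2 rose by 0.79 ± 0.14 (adjusted p = 0.0275). Actn1, a cross-linker of actin, fell by 0.59 ± 0.11 (adjusted p = 0.0276). After 5 weeks Flna, filamin A, fell by 1.12 ± 0.20 (adjusted p = 0.0406), from 85.6 ± 4.6 to 39.3 ± 8.21 CPM, and the other 29 were not called, beside 1.29% of all genes. The medians were -0.15 and -0.12. With any single TAA library, or replicate 17, 18 or 28, left out, none of the 30 was called in either comparison. At 5 weeks none was called without replicate 19 or 23, or with only the groups compared. With the length trend removed, 1 fell and 1 rose at 2 weeks, and 0 fell and 1 rose at 5 weeks. Some settings called more: 4 lower and 1 higher at 5 weeks with DESeq2, and 9 and 6 lower at 2 and 5 weeks with limma on log2(FPKM + 1).

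**Figure D5:**
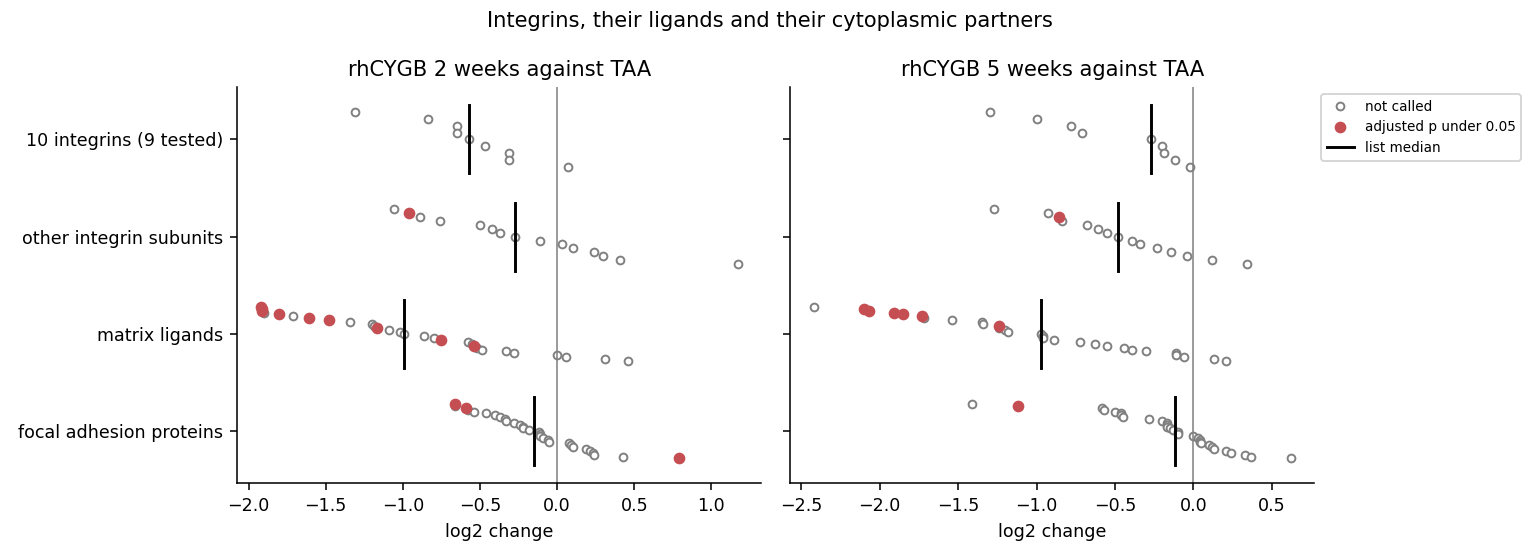
Log2 change after 2 weeks (left) and 5 weeks (right) of rhCYGB against TAA for the integrins described here, the other integrin subunits, their matrix ligands and focal adhesion proteins. Each point is 1 tested gene, filled points passed an adjusted p under 0.05, and the bar is the median of the list. The medians of the matrix ligands, -0.99 and -0.97, lie farther from zero than those of the integrins, -0.57 and -0.27.

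Markers of the cells that carry these receptors moved unevenly with the groups. The 12 stellate and myofibroblast markers summed to between 457 and 576 CPM in TAA, 316 and 379 at 2 weeks, and 261 and 442 at 5 weeks, none at 0 in any library. Of these, Acta2 fell by 2.15 ± 0.42 (adjusted p = 0.0327) and Lum by 1.14 ± 0.24 (adjusted p = 0.0392) after 2 weeks, and Acta2 by 2.93 ± 0.43 after 5 weeks (adjusted p = 0.0361), 2 and 1 of 12 beside 3.31% and 1.29% of all genes. Without any single TAA library, any single 2-week library, replicate 28, or replicates 17, 18 and 23 together, none of the 12 was called in either comparison, nor without replicate 23 at 5 weeks. Smooth muscle and mesothelial markers, 8 genes, summed to 15.1 to 36.8, 6.66 to 10.6 and 5.20 to 10.3 CPM, with none called after 2 or 5 weeks. All 8 changes were below zero in both, with medians of -1.10 and -1.62. With both courses pooled against TAA, 1 of the 8 was called lower, beside 2.00% of all genes called. The 8 endothelial markers summed to 115 to 128, 116 to 140 and 105 to 124 CPM, with none called. The 8 macrophage markers summed to 358 to 463, 378 to 581 and 341 to 401 CPM, and Clec4f rose by 0.85 ± 0.18 after 2 weeks (adjusted p = 0.0411). It was 1 of 8 called there, beside 3.31% of all genes. After 2 weeks 5 of the 8 changes were below zero, with a median of -0.05 beside -0.03 over all genes. T and NK cell markers, 7 genes, summed to 3.09 to 4.11, 7.98 to 13.2 and 2.89 to 11.1 CPM, and Cd8b1 and Nkg7 rose after 2 weeks by 2.55 ± 0.57 (adjusted p = 0.0455) and 2.22 ± 0.50 (adjusted p = 0.0473). These were 2 of 7, beside 3.31% of all genes. Without any single TAA library, or without replicate 17, 18 or 28, Clec4f, Cd8b1 and Nkg7 all missed the threshold (edgeR adjusted p = 0.0611 to 0.170). The part of cell numbers in the integrin values was not tested.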

How the data were processed

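Poly(A)-selected, strand-marked, paired-end RNA libraries of liver, 9 in all, were analysed in 3 groups of 3. Reads had passed through HISAT2 2.1.0, StringTie 1.3.4d and FastQC 0.11.7 on mm10, per the submitters' processing notes, which give no order. Per the file headers, the authors deposited estimated counts per gene, here whole numbers; the step from StringTie to counts is not given in the sources used here, nor is the use of strand in counting. The authors also deposited FPKM for each gene and transcript, which served for levels between genes, shares and an alternative test.

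Genes were kept by filterByExpr (minimum count 10, minimum total 15), and their TMM-scaled counts entered the quasi-likelihood test of edgeR (version 4.0.16, R version 4.3.3). P-values were adjusted by Benjamini-Hochberg over 14731 genes. A fit of 9 libraries with a mean for each of 3 groups (6 residual degrees of freedom) gave 3 comparisons, and all rhCYGB libraries were set against TAA in another fit. The comparisons against TAA share their controls. The SE is approximate, from the change and its F statistic (change over root F), and the 95% interval uses the t quantile of the fit's degrees of freedom. The common biological coefficient of variation was 24.9%.

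The 10 genes and all gene lists were chosen with earlier results of these data known. All 10 were named in every comparison; of other lists, up to 4 called genes with the largest changes (Col4a1, Col5a1, Fbn1, Lamc1 and Nid1 are named beyond this to complete a count), otherwise counts and medians; and 3 genes most like the integrin of lowest p. Length trends were removed by a lowess (span 0.3) of each library's log2 deviation over transcript length, entered as offsets. The alternatives were RLE, upper quartile and total scaling, no filter, DESeq2 1.42.0, limma 3.58.1 on log2(FPKM + 1) and log2(FPKM + 0.1), length removal, only the groups compared, each library left out, and replicates 17, 18 and 23 left out together. On simulated data, edgeR recovered 34% of 2-fold and 96% of 4-fold changes for 2 weeks against TAA (14607 genes), with 9 false calls of 139. For 5 weeks (14557 genes) it recovered 41% and 99%, with 6 of 146. The simulation gave every gene the same spread, with no length trend and no library set apart. Its figures therefore do not give the recovery or false calls in these libraries. A gene list on TGF beta activation is not reported here.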

Additional observations from a re-analysis of the deposited data

How the results depend on the processing

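Of the alternatives, RLE scaling, upper quartile scaling, no filter, length removal and leaving out replicates 17, 18 and 23 together called 0 integrins in all 4 comparisons. For other settings, integrins called are given for 2 weeks, 5 weeks and any rhCYGB against TAA, in that order. Scaling by totals alone called 5, 1 and 2, beside 11.7%, 3.42% and 7.89% of all genes. Limma on log2(FPKM + 1) called 6, 2 and 3, beside 13.5%, 6.8% and 11.1%. On log2(FPKM + 0.1) it called 6, 1 and 2, beside 11.1%, 4.7% and 7.97%. DESeq2 called 1, 1 and 0, beside 11.7%, 7.38% and 7.48% of its genes. Leaving out 1 library gave 0 to 1 at 2 weeks and 0 elsewhere. Without replicate 23 the 2-week number was 1, beside 7.32% of all genes.

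Genes called after 2 weeks against TAA numbered 488, and 1722 with totals alone, 1662 with DESeq2, 1983 and 1639 with limma (pseudocounts 1 and 0.1), 1023 with only the groups compared and 12 without replicates 17, 18 and 23. After 5 weeks they numbered 190, and in that order 504, 1127, 1001, 693, 1 and 7, with 77 under upper quartile scaling, 105 with no filter and 602 with length removal. For any rhCYGB they numbered 295, and 1163 with totals alone, 1117 with DESeq2, 1641 and 1174 with limma and 586 with length removal. Between 5 and 2 weeks they numbered 3, and 756 with DESeq2, 5 with limma at pseudocount 1, 6 with length removal, 0 with only the groups compared and 5 without replicates 17, 18 and 23. Leaving out 1 library gave 1 (TAA replicate 13) to 1095 (replicate 23) at 2 weeks, 0 to 240 (replicate 27) at 5 weeks, 0 to 620 (replicate 23) for any rhCYGB, and 1 to 1889 (replicate 27) between the courses. The cause was not tested.

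The log2 change of Itgb5 at 2 weeks ran up to 0.17 without 1 library (replicate 19) and turned negative with totals alone (-0.265), limma at pseudocounts 1 (-0.267) and 0.1 (-0.272), without TAA replicate 13 (-0.025), without replicate 18 (-0.027) and without replicates 17, 18 and 23 (-0.162). Itgb1 at 5 weeks turned positive without TAA replicate 13 (0.031) or replicate 27 (0.052) and reached -0.11 without replicate 23. Between 5 and 2 weeks, Itga11 turned positive without replicate 18 (0.492) and without replicates 17, 18 and 23 (2.02), which also turned Itgav to -0.104. The lowest value of Itga11 was -1.017, without replicate 27, and Itgb6 ran from -0.051 (without replicate 27) to 0.695 (without replicate 23). No other integrin changed direction. Totals alone put 6.39% of the 2-week calls, 7.54% of the 5-week calls and 4.99% of the any rhCYGB calls above zero, against 59.6%, 53.2% and 43.4% in the TMM scaling. Upper quartile scaling gave 45.1%, 41.6% and 26.7%, limma at pseudocount 1 gave 7.31%, 6.89% and 5.06%, and length removal gave 62.6% at 5 weeks and 53.4% for any rhCYGB. Of medians of other gene lists, 111 moved and 789 did not move by more than the spread between replicates. No paired analysis was possible because the groups share no replicate number. The lowest integrins, Itgb8, Itga11 and Itgb6, are limited by counts.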
